A study of Arabidopsis thaliana with 6 samples.

Results

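The enzymes described here take jasmonates out of action. They form a list of 10 genes, set by gene identifier with earlier results of these data known. All 10 are present among the 27655 genes of the deposited count table. They are the cytochrome P450 genes CYP94B1 (AT5G63450), CYP94B3 (AT3G48520) and CYP94C1 (AT2G27690), the amidohydrolase genes ILL6 (AT1G44350) and IAR3 (AT1G51760), and the jasmonate oxygenase genes JOX1 (AT3G11180), JOX2 (AT5G05600), JOX3 (AT3G55970) and JOX4 (AT2G38240). The sulfotransferase gene ST2A (AT5G07010) completes the list. The deposited table gives some of them other names: IAR3 is ILL4 there, JOX3 is JRG21, JOX4 is ANS and ST2A is SOT15.

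Messenger RNA of whole Arabidopsis thaliana seedlings was sequenced in 6 libraries. All seedlings were wild type, of the Col-0 accession and 14 days old, and had been raised on agar plates in long days. One group of 3 libraries came from seedlings put under distilled water for 1 h, and the control group of 3 libraries from seedlings left in air for the same time. The design calls the replicates biological without saying what was grown or submerged separately, so the spread that the p-values rest on may be partly technical.

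Jasmonic acid becomes an active hormone when it is joined to isoleucine. The conjugate binds the receptor COI1 together with a JAZ repressor, the repressor is destroyed, and MYC transcription factors are released. Turnover works at several points of this route: CYP94 enzymes oxidise the conjugate, amidohydrolases split it, JOX enzymes hydroxylate free jasmonic acid before it can be conjugated, and ST2A adds a sulfate to hydroxylated jasmonic acid. Many of these genes are themselves known to be induced by jasmonate, for example after wounding.

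Library totals ran from 20.04 to 29.7 in units of 1e6 counts. All 16 root markers and all 8 leaf markers had counts in each library. The libraries were not alike in root signal. Air replicate 2 was above the mean of the other air libraries in 13 of 16 root markers, by a median of 0.74 on the log2 scale. Air replicate 3 was above the mean of the others in only 2 of 16, with a median of -0.70. Summed root-marker levels were 82.8 to 139 CPM (counts per 1e6 counts) in air and 113 to 141 CPM under water, so the groups overlapped. Of the 16, 2 were called higher under water by edgeR and 0 lower. Among all tested genes 28.8% were called higher and 26.1% lower. Of the leaf markers 6 of 8 were called lower and 0 higher, and their summed level was 21352 to 22511 CPM in air and 14261 to 16328 CPM under water; their part in the results below was not tested. In whole-seedling RNA, a change in the number of cells of one type and a change in RNA per cell cannot be told apart.

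After 1 h under water, transcripts of 9 of the 10 turnover genes were higher than in air, and the tenth, JOX1, was not detected in either group. The rises ran from 1.30-fold for IAR3 to 88.6-fold for CYP94C1 and 332-fold for JOX4, as ratios of mean CPM, the last resting on 8 air counts in 1 library. Each of the 9 had its lowest submerged library above its highest air library, as did 32.2% of all 19495 genes tested. All 9 were called higher by edgeR's quasi-likelihood test with Benjamini-Hochberg adjustment over all tested genes (adjusted p under 0.05), and 0 were called lower. Of all tested genes, 28.8% were called higher and 26.1% lower, 55% in all. Among the turnover genes 8 were called and at least 2-fold higher, where the share over all genes was 9.69%, and 5 were at least 4-fold higher, where it was 3.46%. The 8 include ILL6 and CYP94B1, whose log2 fold changes of 1.01 and 1.17 lie near the 2-fold limit. Under other processing their lowest values were 0.89 and 0.97, below 2-fold, so the 8 depends on the processing. CYP94B3, CYP94C1 and JOX4 passed the filter on low counts through the submerged libraries alone, which favours a difference. They are among the 5 at least 4-fold higher. The other 6 passed it in air as well, and all 6 were called higher, of which JOX2 and ST2A were at least 4-fold higher. The median log2 fold change of the 9, with CYP94B3, CYP94C1 and JOX4 included, was 2.18, against 0.01 over all tested genes. The list was set with earlier results of these data known, so the shares over all genes describe it and do not test it.

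**Figure D1:**
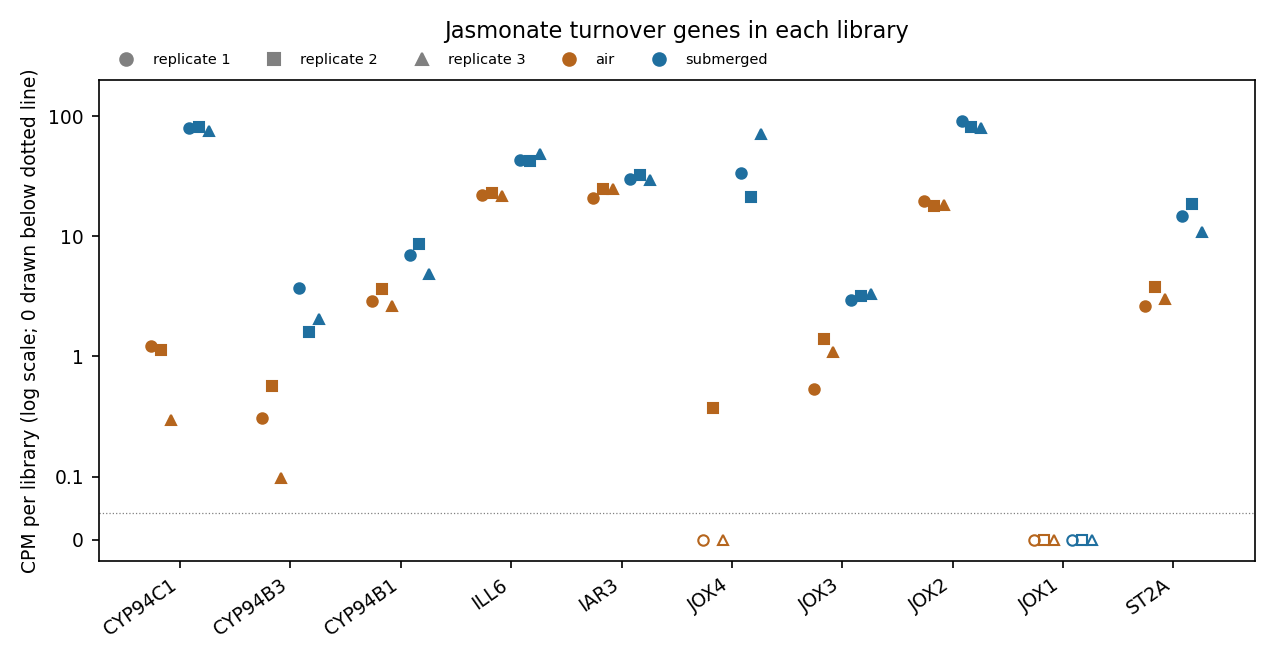
Level of each turnover gene in each library, as CPM on a log axis, with air in brown, submerged in blue and a symbol for each replicate; open symbols below the dotted line are libraries with 0 counts. For all genes but JOX1, which is at 0 throughout, the 3 blue points lie above the 3 brown points.

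The CYP94 enzymes act on the active hormone itself. CYP94B1 and CYP94B3 hydroxylate jasmonoyl-isoleucine, and CYP94C1 carries the oxidation on to a carboxylated form. CYP94C1 had 32, 24 and 6 counts in the air libraries, or 1.23, 1.13 and 0.295 CPM. It had 2345, 1776 and 1457 counts under water, or 79.2, 80.6 and 75.2 CPM. The submerged libraries lay close together, whereas air replicate 3 was well below the other air libraries. The log2 fold change was 6.41 ± 0.18 (SE, n = 3 per group; adjusted p = 3.35e-11), the 23rd highest of all tested genes. The ratio of summed counts was 85.7, with an exact 95% counting interval of 60.2 to 126.

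CYP94B3 stayed far lower. It had 8, 12 and 2 counts in air and 111, 35 and 40 counts under water, which is 0.307, 0.564 and 0.0984 CPM against 3.75, 1.59 and 2.06 CPM. Submerged replicate 1 held more than its group, and air replicate 3 the least of all. The log2 fold change was 2.92 ± 0.52 (adjusted p = 0.000374). Its size shifted in both directions when a single library was dropped. Dropping submerged replicate 1 brought it down to 2.48, the lowest value, and dropping air replicate 2 raised it to 3.52, the highest. With so few counts the ratio of summed counts had a wide counting interval, 4.30 to 16.7 around 8.05.

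CYP94B1 was the CYP94 gene with the highest level in air and rose least. Its air values were 2.88, 3.62 and 2.61 CPM and its submerged values 6.99, 8.58 and 4.85 CPM. The groups did not overlap, with submerged replicate 3 the lowest of its group. The log2 fold change was 1.17 ± 0.23 (adjusted p = 0.000849).

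The leading gene of the family therefore differed between the groups. Levels of different genes are compared here per length, as the TPM (transcripts per 1e6) that the authors deposited. The 3 CYP94 genes together stood at 3.62 ± 1.05 TPM in air (SD, n = 3) and 72.2 ± 5.39 TPM under water. In air, CYP94B1 held 66.1%, 68.9% and 87.3% of that sum and CYP94C1 26.9%, 20.4% and 9.41%. Under water CYP94C1 held 87.6%, 88.3% and 91.2% and CYP94B1 8.12%, 9.88% and 6.18%. The shares of both genes were separate between the groups, while that of CYP94B3 (3.27% to 10.6% in air, 1.81% to 4.32% under water) overlapped. No test is given for shares, since 3 libraries against 3 cannot go below p = 0.1 in an exact two-sided permutation test.

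The JOX enzymes are oxygenases that use iron and 2-oxoglutarate and act upstream of the hormone, on free jasmonic acid. JOX4 had 0, 8 and 0 counts in air and 987, 468 and 1366 counts under water. The submerged values, 33.3, 21.2 and 70.5 CPM, differed among themselves by more than 3-fold, with replicate 3 the highest. The log2 fold change was 8.39 ± 0.69 (adjusted p = 3.80e-07), the 10th highest of all tested genes, but its size depends on single libraries. Leaving out air replicate 1 gave 7.71 and leaving out submerged replicate 3 gave 7.79. Air replicate 2 was the one air library with counts. Leaving it out gave 12.9 with 0 air counts left, so that size is not read. The ratio of summed counts was 336 (exact 95% counting interval 131 to 1234). Without air replicate 2, the summed submerged level was 307 times a floor of 6 counts over the remaining air libraries. That figure leaves out error and spread on the submerged side, so it is not a lower limit for the fold.

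JOX2 was the most abundant JOX gene in air. Its values there were 19.8, 18.0 and 18.1 CPM, against 91.3, 81.7 and 80.01 CPM under water. Both groups were tight and far apart, and the log2 fold change was 2.18 ± 0.07 (adjusted p = 1.32e-10). JOX3 was low in both groups, with 14, 30 and 22 counts in air and 88, 70 and 64 counts under water, or 0.537, 1.41 and 1.08 CPM against 2.97, 3.18 and 3.30 CPM. Its log2 fold change was 1.66 ± 0.34 (adjusted p = 0.00108). JOX1 had 0 counts in all 6 libraries and was not tested. A floor of 6 counts over a group puts its limit at 0.0887 CPM in air and 0.0845 CPM under water, for counting error only.

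The sum of the JOX genes was 13.7 ± 0.553 TPM in air and 103 ± 23.4 TPM under water. JOX2 made up 97.1%, 89.4% and 93.8% of it in air and 62.9%, 69.5% and 41.9% under water. JOX4 made up 0%, 2.84% and 0% in air and 34.9%, 27.5% and 56.2% under water, so in submerged replicate 3 JOX4 exceeded JOX2. The share of JOX3 was at most 7.72% in any library, and its groups overlapped.

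**Figure D2:**
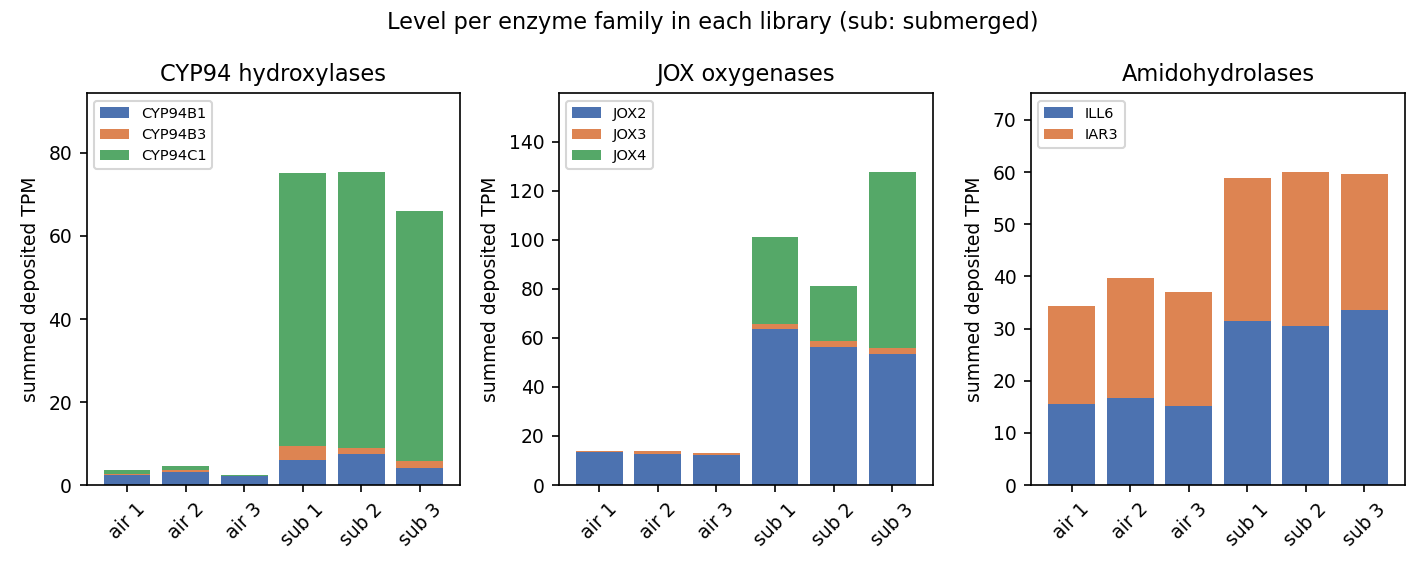
Summed deposited TPM of 3 enzyme families in each library, with the part of each gene in colour; the panels have different vertical scales, all starting at 0, and JOX1 is left out because it was 0 throughout. CYP94C1 fills most of the CYP94 bars under water, JOX4 joins JOX2 in the JOX bars, and the amidohydrolase bars rise least, from 37.0 to 59.5 TPM.

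ILL6 and IAR3 are amidohydrolases that split the bond between jasmonic acid and isoleucine, so they can return free jasmonic acid as well as remove the hormone; IAR3 is also known for releasing auxin from its alanine conjugate. ILL6 stood at 22.0, 22.9 and 21.5 CPM in air and 43.4, 42.2 and 48.2 CPM under water. It was 2.01-fold higher under water with little spread in either group, at a log2 fold change of 1.01 ± 0.07 (adjusted p = 1.20e-07). IAR3 stood at 21.00, 25.0 and 24.5 CPM in air and 29.9, 32.5 and 29.4 CPM under water. Its groups were separate by a small margin and its log2 fold change, 0.38 ± 0.09 (adjusted p = 0.00213), was the lowest of the 9.

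Together the 2 amidohydrolases went from 37.0 ± 2.68 to 59.5 ± 0.579 TPM. IAR3 held the larger part in each air library, 54.6% to 59.05%, and ILL6 the larger part in each submerged library, 50.7% to 56.5%.

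ST2A transfers a sulfate to hydroxylated jasmonic acid, the product of the JOX reaction. It had 69, 81 and 61 counts in air, with a mean of 3.15 ± 0.595 CPM. It had 433, 406 and 211 counts under water, which is 14.6, 18.4 and 10.9 CPM. The groups were well apart although submerged replicate 3 was the lowest of its group, and the log2 fold change was 2.22 ± 0.21 (adjusted p = 1.12e-06). Its annotated transcript shared 4 of 1730 stretches of 50 bases with that of the neighbouring gene ST2B, and the transcripts of the other 9 turnover genes shared none with any other gene. No annotated gene overlaps any of the 10.

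**Figure D3:**
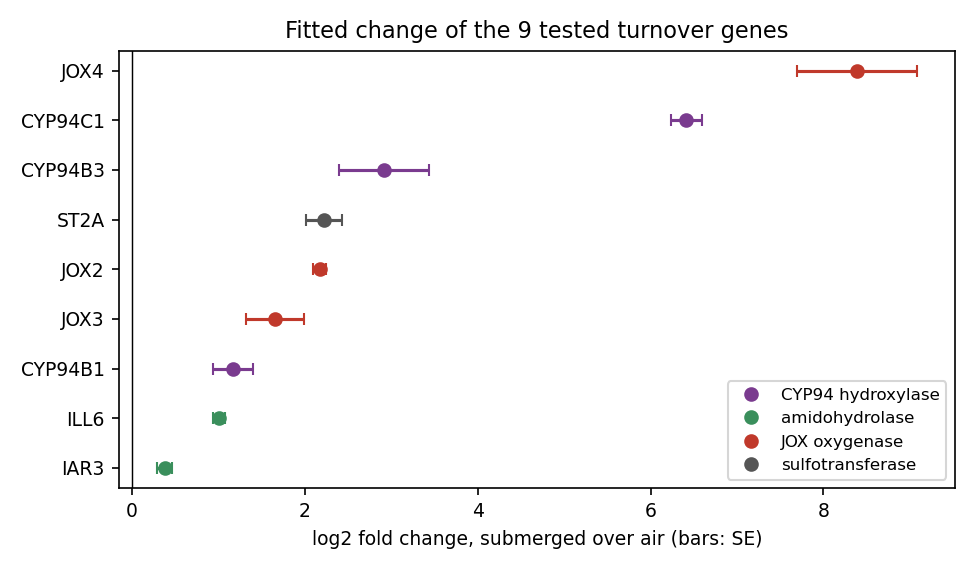
Log2 fold change of submerged over air for the 9 tested turnover genes, with bars for the SE and colours for the enzyme family. JOX4 and CYP94C1 stand highest, at 8.39 and 6.41, and the amidohydrolases ILL6 and IAR3 lowest, at 1.01 and 0.38; the JOX4 value depends on 8 counts in 1 air library.

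Read per length, the order of levels changed as well. In air IAR3 (18.8 to 23.02 TPM) was above ILL6 (15.1 to 16.7) and JOX2 (12.2 to 13.4), with no overlap between them. ST2A (2.42 to 3.59 TPM) and CYP94B1 (2.21 to 3.18) overlapped each other, as did JOX3 (0.402 to 1.09) and CYP94C1 (0.238 to 0.996). CYP94B3 (0.0828 to 0.492 TPM) and JOX4 (0 to 0.400) were lowest and overlapped each other and CYP94C1. CYP94B3 also overlapped JOX3. Under water CYP94C1 (60.2 to 66.6 TPM), JOX2 (53.5 to 63.5) and JOX4 (22.3 to 71.7) overlapped at the top. ILL6 (30.4 to 33.6 TPM) and IAR3 (25.9 to 29.6) were separate from each other but not from JOX4. ST2A (9.81 to 17.1 TPM) was above CYP94B1 (4.08 to 7.45), and JOX3 (2.28 to 2.44) and CYP94B3 (1.37 to 3.25) overlapped at the bottom. The 10 genes summed to 57.2 ± 4.18 TPM in air and 249 ± 14.6 TPM under water. The amidohydrolases were the larger part of that sum in air, with means of 37.1% for IAR3 and 27.7% for ILL6, against 11.2% and 12.8% under water. CYP94C1 went from 1.26% to 26.0% and JOX4 from at most 0.645% in an air library to between 9.55% and 27.3% in a submerged one, while the share of JOX2 overlapped between the groups (22.4% and 23.3%).

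The libraries of a group did not move as one. Air replicate 2, which had the most root-marker signal in air, was above the mean of the other air libraries in 8 of the 9 tested turnover genes. The median difference over the 9 was 0.42 on the log2 scale. Air replicate 1 was above the others in 11 of 16 root markers but in only 3 of the 9 turnover genes. For air replicate 3 it was 2 of 16 and 2 of the 9. The same count over all genes was not made. With the mean root-marker level as a covariate, all 9 were again called higher. JOX4 stood at 10.10 on the log2 scale in place of 8.39, and IAR3 at 0.39 in place of 0.38. The others came out lower. CYP94B3 stood at 2.55 in place of 2.92, CYP94B1 at 0.98 in place of 1.17 and CYP94C1 at 6.20 in place of 6.41. ST2A stood at 2.07 in place of 2.22, and JOX2, JOX3 and ILL6 moved less. A part of root content in the rises was not tested. Among submerged libraries, replicate 3 was highest for JOX4, JOX3 and ILL6 and lowest for CYP94B1, CYP94C1, JOX2, IAR3 and ST2A.

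Calls among close relatives of the turnover enzymes went both ways. Of 9 relatives in the CYP94, ILR1-like and ST2 families, 6 were tested, 1 was called higher and 2 lower, with a median log2 fold change of -0.09. Over all tested genes 28.8% were called higher and 26.1% lower, and with 6 genes the counts are not read as a trait of the relatives. ILR1, an amidohydrolase of auxin conjugates, rose by 0.58 ± 0.15 (adjusted p = 0.00553). CYP94D2 fell by 0.62 on the log2 scale (SE 0.08) and ILL1 by 0.41 (SE 0.08). ST2B, the near neighbour of ST2A, stood at -0.07 ± 0.14 and did not pass (adjusted p = 0.677). ILL2 (-0.10 ± 0.10) and ILL3 (0.56 ± 0.25) did not pass either. CYP94B2, CYP94D1 and ILL5 had at most 6 counts in any library and were not tested. Differences in response between a relative and its turnover enzyme were not tested.

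Genes that make jasmonate moved in both directions. Of 13 synthesis genes 8 were called higher and 2 lower, with a median of 0.52, beside 28.8% and 26.1% of all tested genes. The largest rises were LOX4 (5.16 ± 0.15), a lipoxygenase, and AOC3 (4.24 ± 0.15), an allene oxide cyclase. LOX2, the chloroplast lipoxygenase abundant in leaves, fell by 2.17 (SE 0.08) and AOC4, another cyclase gene, by 0.47 (SE 0.10). JAR1, which conjugates jasmonic acid to isoleucine and so makes the substrate of the CYP94 enzymes, stood at -0.07 ± 0.08 (adjusted p = 0.502).

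In the list of perception and repressor genes, 11 of 17 were called higher and 1 lower, with a median of 0.92. The repressor genes JAZ8 and JAZ5 had the highest fitted values. JAZ8 and JAZ7, another repressor gene, passed the count filter through the submerged libraries alone, which favours a difference, and both are among the 11. JAZ8 had 3 counts in air and 154 under water, a ratio of 48.9 (exact 95% counting interval 9.81 to 308) too wide to rank it against JAZ5, which rose by 4.48 ± 0.21 on the log2 scale. The MYC genes of the list differed. MYC4 fell by 0.64 (SE 0.16), MYC2 rose by 2.63 ± 0.23, and MYC3 stood at -0.10 ± 0.06 (adjusted p = 0.226). The receptor gene COI1 stood at 0.11 ± 0.06 (adjusted p = 0.182). These counts are read beside the 28.8% and 26.1% of all genes called higher and lower.

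**Figure D4:**
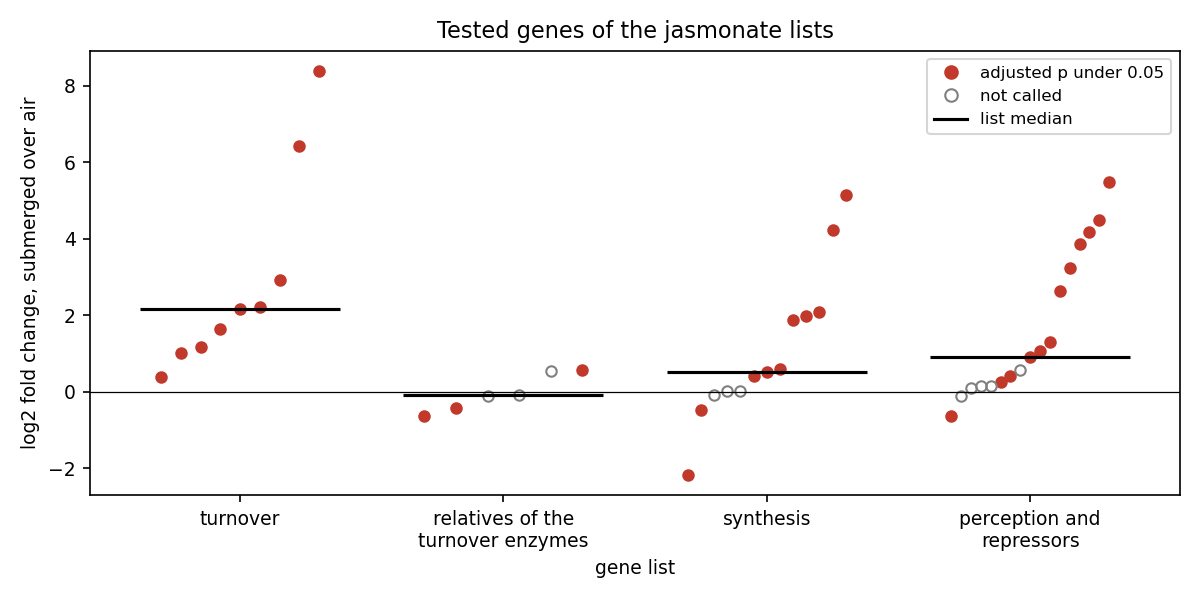
Log2 fold change of each tested gene in 4 jasmonate lists, with filled points for genes called by edgeR (adjusted p under 0.05), open points for the others and a line at each list's median. All 9 turnover genes lie above 0; the medians are 2.18 for turnover, -0.09 for relatives, 0.52 for synthesis and 0.92 for perception and repressors.

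Across the 6 libraries, the profiles most like the mean standardised profile of the 9 tested genes were those of RABA2C (AT3G46830), AT5G15870, MAPKKK16 (AT4G26890), AT2G36580 and EXL3_2 (AT5G51550), each with a Pearson r of 0.999 over 6 libraries. The libraries share the contrast of air and water, and 2635 of 19486 other genes had an r above 0.95, so a value this high does not set these genes apart.

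In the authors' deposited table, log2 fold changes were 8.34 for JOX4, 6.41 for CYP94C1, 2.92 for CYP94B3, 2.22 for ST2A and 2.17 for JOX2. The authors' deposited table further gives 1.67 for JOX3, 1.17 for CYP94B1, 1.01 for ILL6 and 0.38 for IAR3, where the highest false discovery rate of the 9 was 0.00156, for IAR3.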

How the data were processed

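The deposited tables hold whole-number counts, RPKM and TPM per gene and library, per the file headers. A further column headed CPM is a size-adjusted signal, since its deposited values do not sum to 1e6, and was not used. The submitters' processing notes name TAIR10 as the build; no aligner, counter or strand setting is given in the sources used here. The authors' table of log2 fold changes and p-values names no test.

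The test was glmQLFTest of edgeR 4.0.16 (R 4.3.3) on TMM-scaled counts of 19495 genes kept by filterByExpr with a minimum count of 10 and a minimum total of 15. CPM was computed here with TMM factors, and log2 CPM with prior count 2. SE was taken as the log2 fold change over the root of F. TPM served for shares. In each library 85.8% to 87.4% of counts from 1 to 20 were even, so low counts were read as read pairs counted as 2; the floor is 6 counts, or 3 pairs, over a group, and intervals use halved counts and cover counting error only. Replicate pairs differed by 4.46 to 9.07 times sampling variance, so none is a repeat deposit. The procedure was also run on simulated counts.

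Exon lengths of the TAIR10.1 annotation matched those implied by RPKM for 99.3% of 22791 genes (within 0.1%), and it was used for shared stretches and overlaps; positions, promoters and proteins are not reported here. The 10 genes and all lists were chosen with earlier results of these data known. All 10 are named. Of the synthesis, perception and relatives lists up to 2 of the largest called rises and falls are named by rule. JAR1, COI1, MYC2, MYC3, JAZ7, ST2B, ILL2, ILL3 and the untested relatives were added after their values were seen. Alternatives used limma 3.58.1 and DESeq2 1.42.0 among others.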

Additional observations from a re-analysis of the deposited data

How the results depend on the processing

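All 9 tested turnover genes were called higher, and none lower, under each of 16 alternatives in which they passed the filter: 3 other scalings (size factors of DESeq2, upper quartile, plain library size), no filter, halved counts, DESeq2 or limma voom as the test, a root-marker covariate, a replicate block, and each library left out in turn. The filter of 5 CPM in 3 libraries left 6 of them, all called higher. The highest adjusted p was 0.0217, for IAR3 under upper quartile scaling; it put IAR3 at 0.26 and moved the median of all genes by -0.12 on the log2 scale. With that scaling 2 perception and repressor genes were called lower in place of 1. The number called higher in that list was 11 in the main fit. It was lowest, at 10, with upper quartile scaling among others, and highest, at 13, with limma voom among others. When 1 library was left out, 1 to 2 relatives were called higher; the 2 came without submerged replicate 1. Same-numbered libraries deviated with correlations of -0.04, 0.04 and 0.04, and the other pairs with -0.12 to 0.11. With 3 libraries per group, these values cannot decide whether same-numbered libraries belong together. With the replicate block 9 turnover genes were called higher. Counts per length gave the same shares as TPM by construction. Depth limits JOX1, JOX4 in air and CYP94B3. JOX4 was at 9.29 with limma voom and 10.10 with the root-marker covariate, against 8.39. The lowest and highest values of JOX4 and of CYP94B3 without single libraries are given with their results.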
